A study of Mus musculus with 72 samples.

Results

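The epididymal white adipose tissue (eWAT) of male mice that met both an undernourished mother and a fatty diet was compared with that of mice that met neither. CR20-HFD mice were born to dams whose food was cut by 20% from embryonic day 15 through lactation, and ate a diet with 45% fat from 8 weeks of age. The dams of FED-CTRL mice had free access to food, and these mice ate a diet with 10% fat from the same age. The libraries were chosen by tissue and group label alone, and 12 of the 72 libraries of the series belong here, 6 from each group. All were from sighted FVB mice. The labels allow for 10 or 16 weeks on the diet, and the sequenced males are described elsewhere in the study as the mice of the 10-week diet. Maternal feeding and offspring diet both differ between the groups, so their parts in a difference cannot be told apart from these 12 libraries. Litter and cage are not given, and mice from the same dam may stand in a group, so p-values measure only the spread between the mice sequenced. The main test takes that spread from all 24 eWAT libraries, including those of the other groups.

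As background, eWAT is the fat depot attached to the epididymis. Its adipocytes take up fatty acids from circulating lipoproteins, make fatty acids from glucose (de novo lipogenesis), store them as triglyceride and release them again by lipolysis. On a fatty diet the lipogenic enzymes are commonly lower, and in obesity macrophages gather around dying adipocytes. Adipocytes also run a circadian clock, in which BMAL1 and CLOCK bind E-boxes (CACGTG) and switch on the Per, Cry, Nr1d1 and Dbp genes, whose products feed back on it, so the transcripts of these genes rise and fall over the day.

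FED-CTRL libraries held 18896702 to 22364963 counts in total, and CR20-HFD libraries 12855046 to 21046778. A count of 3, taken as the lower limit of detection, equals 0.134 to 0.159 CPM (counts scaled by the library total) in FED-CTRL and 0.143 to 0.233 CPM in CR20-HFD, counting error only. Adipocyte markers were high in all 12 libraries, with a summed level of 30805 to 35767 CPM in FED-CTRL and 34853 to 38291 CPM in CR20-HFD for 10 genes. Summed macrophage markers (12 genes) spanned 1651 to 2321 CPM in FED-CTRL and 1429 to 2330 CPM in CR20-HFD, so that the groups overlapped. In bulk tissue, fewer cells of a type and less RNA per cell cannot be told apart.

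A pair of CR20-HFD mice stood apart from the other 4. The distance of each library from the FED-CTRL mean was taken as the root mean square of the log2 CPM differences over 15964 genes. Each FED-CTRL mouse was set against the mean of the other FED-CTRL mice. The distance ranged from 0.316 to 0.399 among FED-CTRL mice. CR20-HFD mice 45, 46, 32 and 31 lay at 0.387, 0.41, 0.414 and 0.447, and mice 6 and 7 at 0.629 and 0.643. Mice 6 and 7 also had the smallest totals of CR20-HFD, at 14893348 and 12855046 counts. The other 4 held 18407588 to 21046778 counts, and the part of depth in these distances was not tested. Mouse 6 had the lowest summed mesothelial markers, at 59.8 CPM against 358 to 797 CPM in FED-CTRL, with the keratin gene Krt8 at 1.61 CPM. Mouse 6 also held 26.5 CPM of epididymis and testis transcripts, which summed to 0.212 CPM or less in every FED-CTRL library. Of those 14 marker genes 9 were at 0 in both groups. CR20-CTRL mice 4 and 5 held more of these transcripts, at 132 and 62.5 CPM, and no FED-HFD mouse more than 0.0993 CPM. In mouse 7, genes such as Foxj1 and Ccl21a were high, as given with the widest differences. The part of these transcripts in other results was not tested, and counts without mice 6 and 7 stand beside the lists. Between pairs of mice the median distance was 0.431 within FED-CTRL, 0.639 within CR20-HFD and 0.531 across these groups. The median distance was larger among CR20-HFD mice than between the groups. The median standard deviation of a gene was 0.236 in CR20-HFD and 0.18 in FED-CTRL on the log2 scale. It was 0.316 in FED-HFD and 0.335 in CR20-CTRL, whose libraries also enter the main fit.

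**Figure D1:**
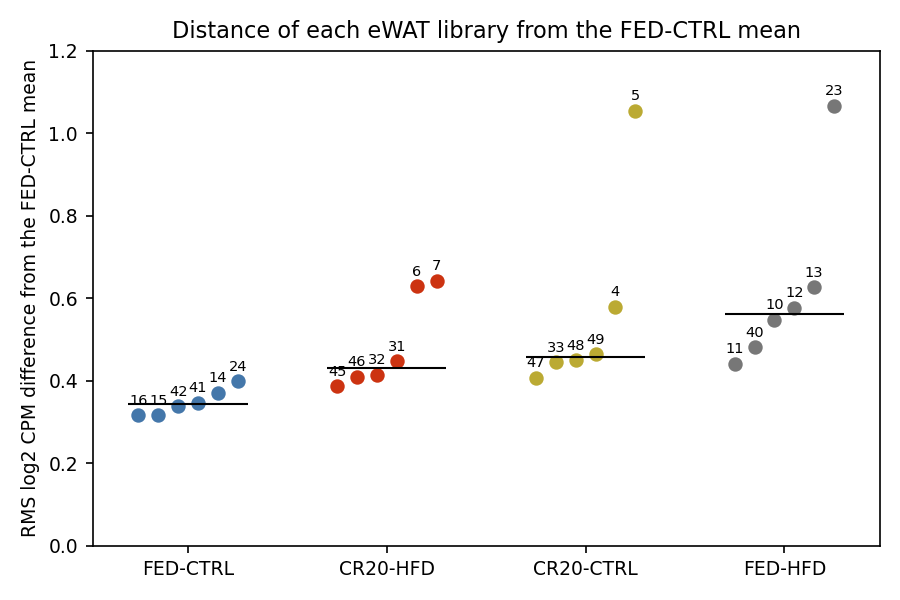
Distance of each of the 24 eWAT libraries from the mean of the FED-CTRL libraries (vertical axis, root mean square difference in log2 CPM), by group, with the animal number beside each point and a bar at the group median. A FED-CTRL library is set against the mean of the other FED-CTRL libraries. CR20-HFD mice 6 and 7 (0.629 and 0.643) lie above the other 4 CR20-HFD mice, which sit between 0.387 and 0.447, and FED-HFD mouse 23 and CR20-CTRL mouse 5 lie farthest of all.

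No gene passed the threshold between CR20-HFD and FED-CTRL eWAT. The count model (edgeR's quasi-likelihood test on all 24 eWAT libraries) called 0 of 15964 genes (0%) at an adjusted p of at most 0.055 and an absolute log2FC of at least 1, and 0 genes (0%) with the log2FC limit lowered to 0.58. An unadjusted p under 0.05 was found for 1119 genes (7.01%), of which 645 were higher (4.04%) and 474 lower (2.97%) in CR20-HFD. The test that the methods name, limma voom with quality weights, called 21 genes (0.132%), 10 of them higher (0.0626%) and 11 lower (0.0689%), at a log2FC of 1, 59 genes (0.37%) at 0.58, and gave 2675 genes (16.8%) an unadjusted p under 0.05. DESeq2 called 0 genes (0%) at a log2FC of 1 and 4 at 0.58 (0.0251%), with 1233 genes (7.72%) at an unadjusted p under 0.05. The groups did not overlap for 188 genes (1.18%), with 71 higher and 117 lower in CR20-HFD.

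The precision of the fit set how far small differences could be seen. The median absolute log2FC was 0.123 and the median standard error (SE) 0.173. For 12917 genes (80.9%) the 95% interval of the log2FC lay within 1 on both sides of 0, and for 9127 genes (57.2%) within 0.58. For the other genes the interval reached 2-fold or more in at least 1 direction.

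In the same eWAT fit, 750 genes (4.7%) were called in FED-HFD against FED-CTRL, with 668 higher (4.18%) and 82 lower (0.514%). For CR20-CTRL against FED-CTRL, 0 genes (0%) were called by edgeR, with 1180 (7.39%) at an unadjusted p under 0.05. CR20-HFD against CR20-CTRL gave 0 calls (0%) and 962 genes (6.03%) at that p. These comparisons share mice with the one described here, so their values are set side by side only. The 668 genes had a median log2FC of 1.46 in FED-HFD, which is what chose them, and of -0.06 in CR20-HFD. The 82 genes lower in FED-HFD had medians of -1.23 and -0.39.

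**Figure D2:**
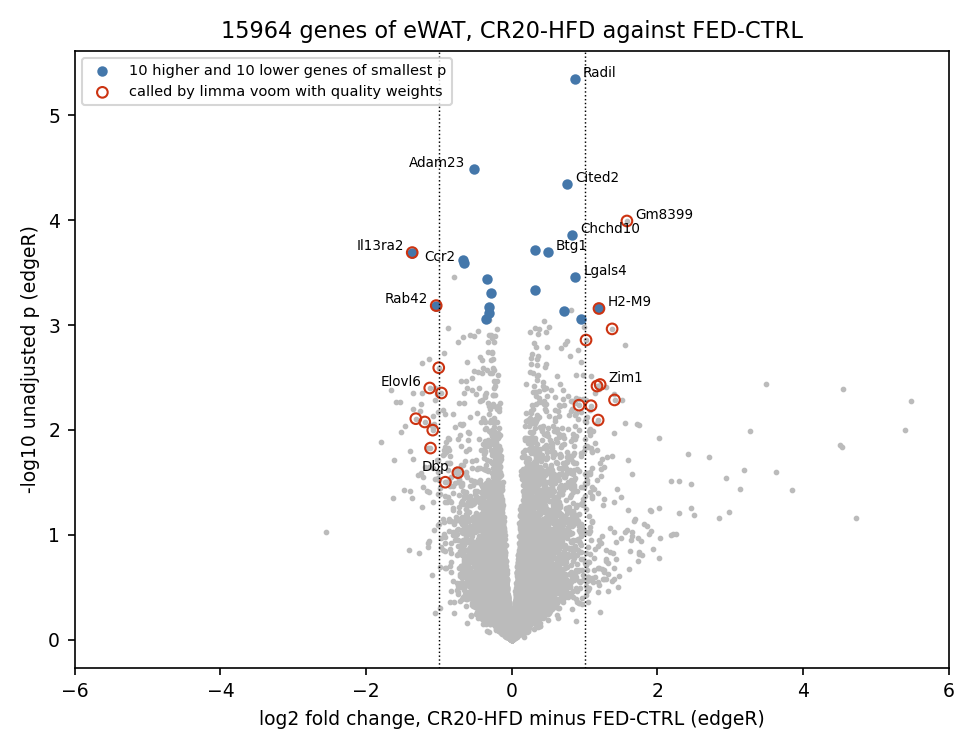
Log2FC between CR20-HFD and FED-CTRL (horizontal axis) against the −log10 of the unadjusted edgeR p (vertical axis) for 15964 genes in eWAT. Filled blue points are the 10 higher and 10 lower genes of smallest p among protein-coding genes without a Gm or Rik name. Open red circles are the 21 genes called by limma voom with quality weights. Dotted lines mark a log2FC of 1 on either side, and the highest point is Radil at a log2FC of 0.86.

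The gene nearest to the threshold was Radil, which encodes an effector of the small GTPase Rap1 in cell adhesion (ENSMUSG00000029576, chromosome 5, 142469552 to 142536853, minus strand, GRCm39). Its level was 5.12, 5.84 and 7.36 CPM (lowest, median and highest) in FED-CTRL and 8.65, 10.6 and 13.3 CPM in CR20-HFD, so that every CR20-HFD mouse lay above every FED-CTRL mouse. Its log2FC was 0.86 (SE 0.146, 95% interval 0.56 to 1.17), a ratio of 1.82. The edgeR adjusted p was 0.0718, that of limma voom with quality weights 0.00121 and that of DESeq2 0.000116. In FED-HFD against FED-CTRL its log2FC was 0.41 (edgeR adjusted p = 0.0719).

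The 10 higher genes of smallest p were taken from protein-coding genes without a Gm or Rik name. They were Radil, Cited2, Chchd10, Rfxap, Btg1, Lgals4, Fbxl6, H2-M9, Slc27a1 and Pdk4. For 6 of them the groups did not overlap, which their choice by p between these same groups favours, so the count only describes them (0.445% of all genes tested did not overlap with CR20-HFD the higher). Cited2, which encodes a transcriptional co-regulator that binds CBP and p300, was at 17.5, 20.9 and 25.1 CPM in FED-CTRL and at 24.7, 33.5 and 48.1 CPM in CR20-HFD. A single CR20-HFD mouse fell within the FED-CTRL range. The log2FC of Cited2 was 0.76 (SE 0.153, edgeR adjusted p = 0.243). Chchd10, which encodes a protein of the mitochondrial intermembrane space, was at 11.9, 19.8 and 22.4 CPM against 20.9, 35.8 and 37.2 CPM, with a log2FC of 0.83 (SE 0.182). CR20-HFD mouse 46 alone lay within the FED-CTRL range of Chchd10.

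A pair of genes of fuel use were among them. Slc27a1 encodes FATP1, a fatty acid transport protein with acyl-CoA synthetase activity (chromosome 8, 72021095 to 72041866, plus strand). It was at 188, 242 and 275 CPM in FED-CTRL and at 296, 370 and 540 CPM in CR20-HFD, without overlap (log2FC 0.72, SE 0.185, edgeR adjusted p = 0.483). Pdk4 encodes the kinase that inhibits pyruvate dehydrogenase and so spares glucose when fatty acids are burnt (chromosome 6, 5483097 to 5496339, minus strand). Pdk4 was at 28.7, 45.4 and 66.2 CPM in FED-CTRL and at 62.9, 101 and 110 CPM in CR20-HFD, where mouse 32 alone reached into the FED-CTRL range (log2FC 0.95, SE 0.249, ratio 1.93, edgeR adjusted p = 0.483). The log2FC of Pdk4 in FED-HFD was 1.71. For the remaining higher genes, Rfxap, Btg1 and Fbxl6 had log2FC values of 0.33, 0.49 and 0.32, and Lgals4 0.87. H2-M9 was at 0.731, 1.64 and 2.02 CPM in FED-CTRL and at 2.42, 3.02 and 5.39 CPM in CR20-HFD, without overlap. Rfxap encodes a subunit of the RFX complex that drives MHC class II genes, and Btg1 an antiproliferative protein. H2-M9 is an MHC class I gene with near-identical relatives and 28.1% of the exon bases of Fbxl6 lie on the exons of Slc52a2 on the other strand. The strand setting of the counting is not stated, so both counts are uncertain.

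**Figure D3:**
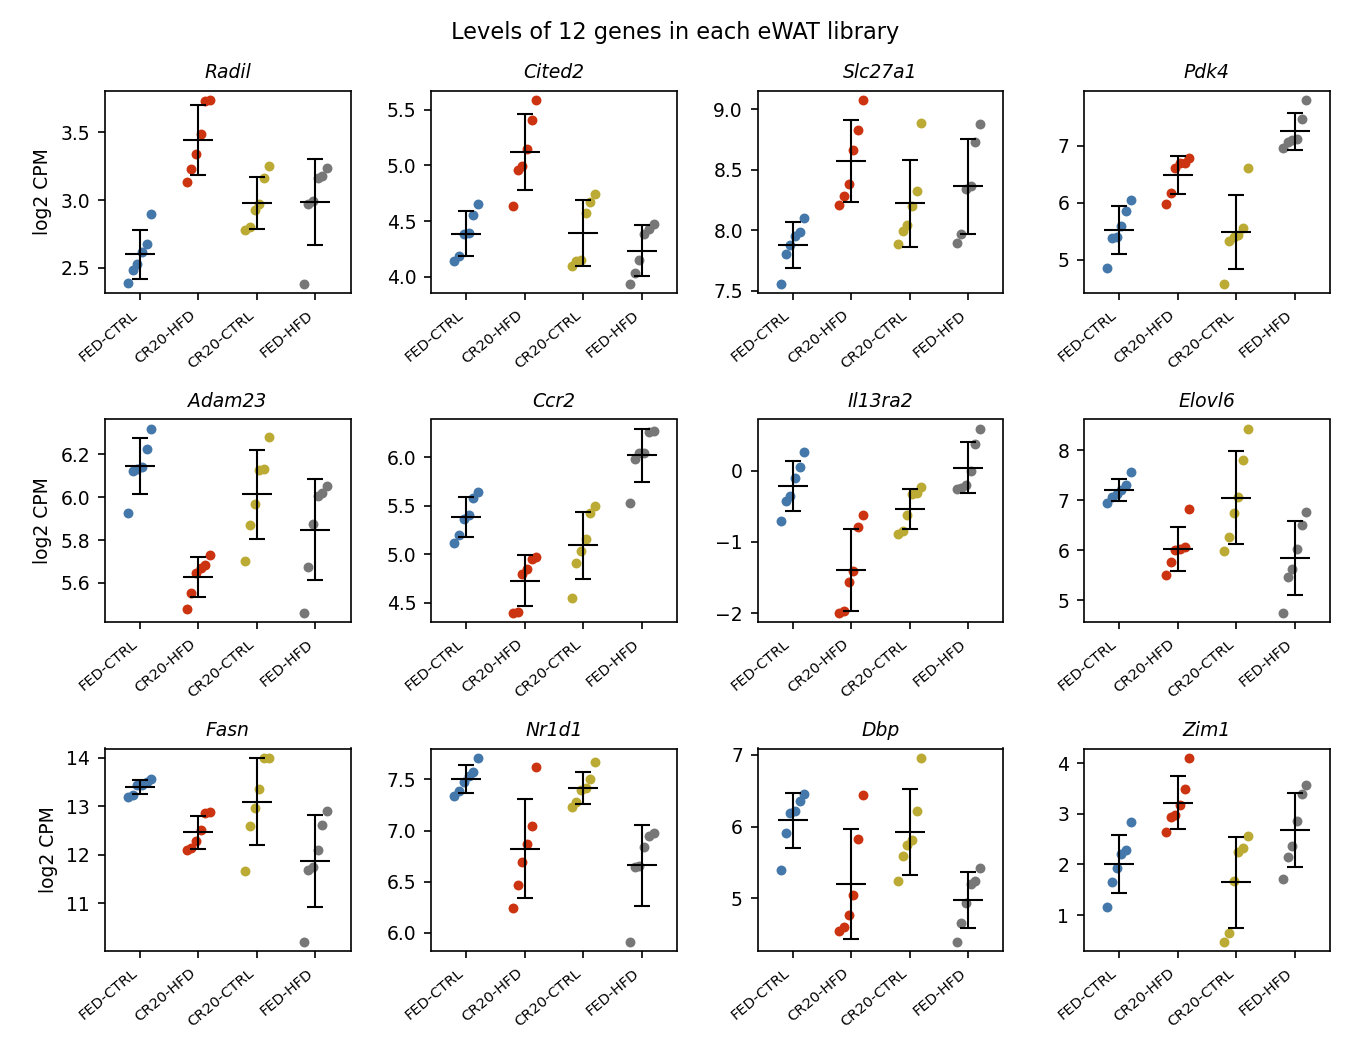
Log2 CPM (vertical axes, prior count 2) of 12 genes in each eWAT library, by group, with the mean and the standard deviation of 6 mice. Radil, Slc27a1, Adam23, Ccr2, Elovl6 and Fasn show CR20-HFD mice wholly above or below FED-CTRL mice, whereas 1 or more CR20-HFD mice lie in the FED-CTRL range for Cited2, Pdk4, Il13ra2, Nr1d1, Dbp and Zim1.

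The 10 lower genes of smallest p were Adam23, Il13ra2, Klhl29, Ccr2, Hip1, Kpna4, Rab42, Kpna6, Atr and Exoc4. These were chosen by p in the same way, and for 6 of them the groups did not overlap (0.733% of all genes tested with CR20-HFD the lower). Adam23 encodes a membrane protein of the disintegrin and metalloprotease family without protease activity (chromosome 1, 63484875 to 63635436, plus strand). It was at 60.7, 70.2 and 79.7 CPM in FED-CTRL and at 44.5, 50.4 and 53.0 CPM in CR20-HFD, a log2FC of -0.52 (SE 0.102, edgeR adjusted p = 0.243), and the groups were apart.

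Lower levels were also found for a pair of receptor genes of immune signalling. Ccr2, which encodes the receptor for the monocyte chemoattractant CCL2 (chromosome 9, 123901982 to 123913594, plus strand), was at 34.7, 41.8 and 49.7 CPM in FED-CTRL and at 20.9, 28.2 and 31.2 CPM in CR20-HFD. Every CR20-HFD mouse lay below every FED-CTRL mouse, and the log2FC was -0.65 (SE 0.152, 95% interval -0.97 to -0.34, edgeR adjusted p = 0.409). Against the same FED-CTRL mice the log2FC of Ccr2 in FED-HFD was 0.65 (edgeR adjusted p = 0.00827). Il13ra2, which encodes the decoy receptor for interleukin 13, was low in both groups, at 0.506, 0.748 and 1.09 CPM in FED-CTRL and at 0.143, 0.251 and 0.54 CPM in CR20-HFD (log2FC -1.37, SE 0.311). The lowest Il13ra2 value lies near the 3-count limit.

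The other lower genes differed by less than 2-fold except for Rab42, a gene of a small GTPase of the Rab family. It was at 1.13, 1.29 and 1.35 CPM in FED-CTRL and at 0.269, 0.607 and 0.929 CPM in CR20-HFD, without overlap (log2FC -1.04, SE 0.264). Kpna4 and Kpna6 encode importins alpha, which carry proteins into the nucleus, and had log2FC values of -0.29 and -0.31. Exoc4, a subunit of the exocyst that tethers secretory vesicles, had -0.35, Atr, a kinase of the DNA damage response, -0.31, Hip1, a clathrin adaptor, -0.34, and Klhl29 -0.67.

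Limma voom with quality weights called 21 genes, for which the smallest edgeR adjusted p was 0.406 (Gm8399). By that test Gm8399, H2-M9, AA467197, Gadd45g, Zim1, ENSMUSG00000086332, Prr7, Spon2, Cldn5 and Gm39397 rose, and Il13ra2, Rab42, Pde7b, Elovl6, D830024N08Rik, Gm28265, 3425401B19Rik, Gm5182, Xlr3c, Dbp and Disp2 fell. Of these genes 15 were protein-coding, and 10 had medians under 2 CPM in both groups. Gadd45g, a stress-inducible gene of growth arrest, was at 8.61, 13.8 and 15.5 CPM in FED-CTRL and at 12.3, 21.6 and 52.6 CPM in CR20-HFD. The groups of Gadd45g overlapped, and by limma voom with quality weights its log2FC was 1.11 (adjusted p = 0.0445). Cldn5, a tight-junction gene of endothelial cells, was at 15.5, 24.2 and 71.2 CPM against 34.3, 77.6 and 92.3 CPM (log2FC 1.28, adjusted p = 0.0323 by that test). The endothelial list had 0 of 10 genes at an unadjusted edgeR p under 0.05 in either direction, with a median log2FC of 0.21. By limma voom with quality weights 1 of the 10 was higher and 0 lower at an unadjusted p under 0.05, with a median of 0.29. By that test 16.8% of all genes had such a p in either direction. The summed level of the list had a median of 602 CPM in FED-CTRL (469 to 1080). In CR20-HFD it was 831 CPM (566 to 929). Pde7b, a cAMP phosphodiesterase gene, was at 4.53, 6.72 and 8.9 CPM against 1.24, 3.34 and 6.53 CPM (log2FC -1.03, adjusted p = 0.05 by that test). The count of Xlr3c is uncertain because the Xlr3 genes are near-identical copies.

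Clock genes were the list with the most members at an unadjusted p under 0.05. The hour at which each mouse's tissue was taken is not given, and its part in these values was not tested. Of 19 clock genes tested, 9 were lower (Rora, Nr1d1, Hlf, Nr1d2, Bhlhe41, Dbp, Ciart, Bhlhe40 and Tef) and 1, Bmal1, higher at that p by edgeR, where 2.97% and 4.04% of all genes were. None passed the adjusted threshold (smallest edgeR adjusted p = 0.483). The median log2FC of the list was -0.27, beside 0.01 over all genes tested. With limma voom with quality weights 5 of the 19 genes were lower at an adjusted p of at most 0.055, where 0.545% of all genes were, and 1 of them, Dbp, also passed the log2FC limit of 1.

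The promoters below are those of the lower clock genes in which the E-box that BMAL1 and CLOCK bind was found. They are the 250 bases before the transcription start, from RefSeq on GRCm38.p6, an older build than that of the counts, with each E-box in capitals.
Ciart (chr3:95882229-95882478, minus strand): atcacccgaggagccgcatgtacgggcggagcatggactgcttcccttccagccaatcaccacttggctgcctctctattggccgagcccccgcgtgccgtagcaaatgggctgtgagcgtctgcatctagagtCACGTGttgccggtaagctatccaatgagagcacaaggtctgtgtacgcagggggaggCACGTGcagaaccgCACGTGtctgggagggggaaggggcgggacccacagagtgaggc
Bhlhe41 (chr6:145865421-145865670, minus strand): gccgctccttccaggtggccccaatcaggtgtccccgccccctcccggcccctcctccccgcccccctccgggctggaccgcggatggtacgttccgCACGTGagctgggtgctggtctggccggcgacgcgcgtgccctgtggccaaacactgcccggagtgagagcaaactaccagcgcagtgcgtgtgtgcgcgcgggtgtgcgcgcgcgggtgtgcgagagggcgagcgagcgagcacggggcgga
Tef (chr15:81802423-81802672, plus strand): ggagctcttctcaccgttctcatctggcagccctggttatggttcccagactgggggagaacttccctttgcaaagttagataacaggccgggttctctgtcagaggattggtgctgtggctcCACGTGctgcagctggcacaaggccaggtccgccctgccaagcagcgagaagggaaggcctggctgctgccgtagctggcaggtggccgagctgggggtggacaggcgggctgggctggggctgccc

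The E-boxes of Ciart end 111, 53 and 39 bases before the start, that of Bhlhe41 148 bases and that of Tef 122 bases, the last at 1 of its 2 listed starts. CACGTG reads the same on both strands. Of the 19 clock genes 15 had a promoter listed, and CACGTG was found in 5 of these (33.3%; Bhlhe41, Ciart, Cry1, Per1 and Tef), against 1854 of 27025 genes (6.86%). Of these 5, Cry1 and Per1, whose promoters are not shown, had log2FC values of 0.27 and -0.04, and the other 3 were among the 9 lower genes. The D-box (TTATGTAA or TTACGTAA, both strands) was found in 1 of the 15 against 1.1% of all genes, and the ROR element (NTAGGTCA, both strands) in 1 of the 15 against 2.53%. These matches describe the letters in the window only.

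The levels of the clock genes differed strongly from mouse to mouse. Dbp, an output transcription factor of the clock (chromosome 7, 45354512 to 45359627, plus strand), was at 42, 73.8 and 88 CPM in FED-CTRL and at 23.3, 30 and 86.4 CPM in CR20-HFD (log2FC -0.74, SE 0.31). In CR20-HFD, mice 45, 46, 7 and 6 lay below all FED-CTRL mice at 23.3, 24.1, 27 and 33 CPM, and mice 32 and 31 lay among them at 56.9 and 86.4 CPM. Bmal1, the activator that peaks opposite to Dbp (chromosome 7, 112806152 to 112914735, plus strand), was at 1.89, 3.08 and 8.19 CPM in FED-CTRL and at 1.83, 7.3 and 14.9 CPM in CR20-HFD. Mice 45 and 46 held the highest Bmal1 levels (14.8 and 14.9 CPM) and mouse 31 the lowest (1.83 CPM), whereas mice 45 and 46 held the lowest Dbp levels of CR20-HFD and mouse 31 the highest. The groups overlapped, and a two-sided exact permutation test over all divisions of the 12 mice into 6 and 6 gave p = 0.154 for Bmal1.

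Nr1d1, which encodes the repressor REV-ERB alpha, was at 162, 182 and 210 CPM in FED-CTRL and at 75.5, 110 and 197 CPM in CR20-HFD, where only mouse 31 lay within the FED-CTRL range (log2FC -0.62, SE 0.18). Nr1d1 shares 52.3% of its exon bases with Thra on the other strand, and Dbp 15.5% with Sphk2, so their counts may hold reads of both genes. Ciart, a circadian repressor, was at 1.82, 3.24 and 10.4 CPM in FED-CTRL, where mouse 14 held the highest value, and at 0.969, 2.03 and 3.71 CPM in CR20-HFD (log2FC -1.02, SE 0.436). Bhlhe41, the repressor DEC2, was at 10.7, 18.4 and 24.5 CPM against 8.27, 10.2 and 16.9 CPM (log2FC -0.64, SE 0.255). Among the clock genes with no p under 0.05, Per1, Per2, Cry2 and Clock had log2FC values between -0.09 and -0.01. The count of 9 lower clock genes was 4 without FED-CTRL mouse 14, 5 without CR20-HFD mouse 45 or 46, and 4 without mice 6 and 7, and the median log2FC was -0.18 without mouse 45. The median log2FC of the list in FED-HFD against the same FED-CTRL mice was -0.50.

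**Figure D4:**
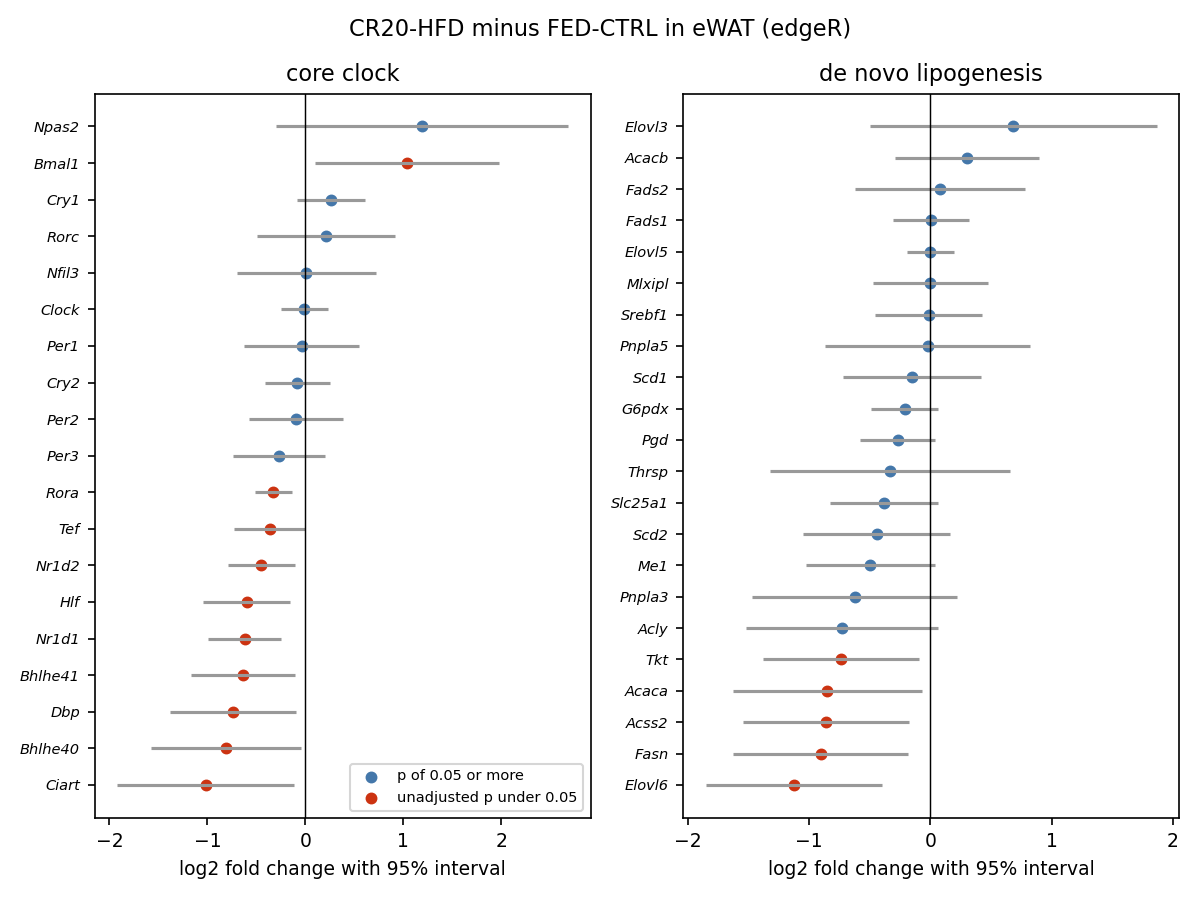
Log2FC between CR20-HFD and FED-CTRL with its 95% interval by edgeR (horizontal axes) for each tested gene of the clock and lipogenesis lists in eWAT, red where the unadjusted p was under 0.05. Of the clock genes 9 lie to the left of 0 and 1 to the right in red, and of the lipogenic genes 5 lie to the left in red.

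Genes of de novo lipogenesis were lower in CR20-HFD for several enzymes of the main route. Of 22 genes tested, 5 were lower and 0 higher at an unadjusted edgeR p under 0.05 (Elovl6, Fasn, Acss2, Acaca and Tkt), where 2.97% and 4.04% of all genes were, the median log2FC was -0.30, and none passed the adjusted threshold. For 5 of the 22 genes every CR20-HFD mouse lay below every FED-CTRL mouse (Elovl6, Fasn, Acss2, Me1 and Slc25a1), as was so for 0.733% of all genes tested. Fasn encodes fatty acid synthase, which builds palmitate (chromosome 11, 120696672 to 120715995, minus strand). Its level was 9373, 11049 and 12122 CPM in FED-CTRL and 4358, 5388 and 7493 CPM in CR20-HFD, a ratio of 0.533 (log2FC -0.91, SE 0.35, 95% interval -1.63 to -0.18, edgeR adjusted p = 0.601). By limma voom with quality weights its adjusted p was 0.0409.

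Elovl6, the elongase that lengthens palmitate to stearate (chromosome 3, 129326004 to 129432144, plus strand), was at 122, 144 and 191 CPM in FED-CTRL and at 45.5, 64.8 and 113 CPM in CR20-HFD. The groups of Elovl6 did not overlap, with CR20-HFD mouse 46 nearest to FED-CTRL, and its log2FC was -1.13 (SE 0.352, edgeR adjusted p = 0.515). With only these groups in the edgeR fit, Elovl6 was the 1 gene called (log2FC -1.12). Acaca, the acetyl-CoA carboxylase that makes malonyl-CoA for this pathway, had a log2FC of -0.85 (SE 0.378). Acss2, which makes acetyl-CoA from acetate, was at 204, 225 and 337 CPM against 105, 117 and 197 CPM (log2FC -0.86, SE 0.331). Tkt, the transketolase of the pentose phosphate pathway, had a log2FC of -0.74. Me1, the malic enzyme that supplies NADPH, was at 325, 357 and 465 CPM against 239, 258 and 318 CPM, and Slc25a1, the citrate carrier, at 404, 451 and 529 CPM against 306, 356 and 403 CPM.

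The regulators and the desaturase of the pathway gave log2FC values near 0. Srebf1 and Mlxipl, the transcription factor genes of lipogenesis (SREBP1 and ChREBP), had -0.02 (95% interval -0.46 to 0.43) and 0.00 (95% interval -0.48 to 0.47). Scd1, the stearoyl-CoA desaturase, had -0.15 (95% interval -0.72 to 0.42). CACGTG lay in 4 of the 18 lipogenic promoters listed (22.2%; Elovl5, Mlxipl, Pnpla5 and Slc25a1), and that of Slc25a1, which ends 234 bases before the start, is shown because its mouse levels did not overlap.
Slc25a1 (chr16:17928220-17928469, minus strand): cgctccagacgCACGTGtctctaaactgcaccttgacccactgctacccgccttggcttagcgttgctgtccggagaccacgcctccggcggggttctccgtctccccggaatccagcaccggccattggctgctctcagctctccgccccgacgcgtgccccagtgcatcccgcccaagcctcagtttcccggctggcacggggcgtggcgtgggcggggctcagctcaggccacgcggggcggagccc
The count of 5 lower lipogenic genes was 3 without FED-CTRL mouse 14 and 2 without CR20-HFD mice 6 and 7. It was 10 by limma voom with quality weights, 10 without FED-HFD mouse 23 and CR20-CTRL mouse 5, and 11 of 20 genes tested with only the groups compared in the fit. The median log2FC of the 22 genes in FED-HFD was -0.67. Genes of cholesterol synthesis, the neighbouring route, had 0 of 19 at an unadjusted p under 0.05 and a median of -0.07.

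Fatty acid uptake and oxidation genes had 3 of 26 higher and 0 lower at an unadjusted edgeR p under 0.05, namely Slc27a1, Pdk4 and Gpihbp1, where 4.04% and 2.97% of all genes were, with a median log2FC of 0.07. The counts were 7 higher and 2 lower with only the groups compared in the fit and also without FED-HFD mouse 23 and CR20-CTRL mouse 5, and 6 and 2 by limma voom with quality weights. Gpihbp1, which carries lipoprotein lipase to the capillary lumen, was at 68.2, 77.7 and 112 CPM in FED-CTRL and at 75.7, 113 and 181 CPM in CR20-HFD, with overlap (log2FC 0.56, SE 0.246). Lpl itself lay lower in every CR20-HFD mouse than in any FED-CTRL mouse, by a log2FC of -0.27 (SE 0.156, 95% interval -0.60 to 0.05). Cd36, Cpt1a and Acadm, of fatty acid uptake and beta oxidation, had log2FC values of -0.13, 0.06 and 0.08, with 95% intervals inside 1 on both sides of 0.

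Genes of lipolysis and the lipid droplet had 0 of 26 higher and 2 lower at an unadjusted edgeR p under 0.05, with a median of 0.00. The counts of this and the adipokine list stand beside 4.04% of all genes higher and 2.97% lower at that p. Gpd1, which makes glycerol 3-phosphate, and Lpin1, a phosphatidate phosphatase, both had a log2FC of -0.45, and 53.1% of the Gpd1 exon bases lie under a noncoding gene on the other strand. The triglyceride lipase genes Pnpla2 and Lipe and the droplet coat gene Plin1 had log2FC values of 0.12, 0.00 and 0.01. Of 17 adipokine genes 1, Angptl4, was higher at that p (log2FC 0.56, SE 0.245), and 0 lower. Leptin (Lep) was at 2142, 2435 and 3157 CPM in FED-CTRL and at 988, 2580.5 and 2896 CPM in CR20-HFD (log2FC -0.14, 95% interval -0.63 to 0.35). CR20-HFD mouse 31 held the lowest Lep value, and without it the log2FC was 0.01. Adipoq and Retn had log2FC values of -0.04 and 0.03, and Cfd, the adipocyte complement factor adipsin, 0.68 (SE 0.424).

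The 7 inflammatory genes that the study names for eWAT had log2FC values on both sides of 0, with wide intervals. These genes were chosen by the study on these samples for their response to the diet in FED mice, so their FED-HFD values are a description. In CR20-HFD, 0 of 7 were higher or lower at an unadjusted p under 0.05, where 4.04% of all genes were higher and 2.97% lower. Their median log2FC was -0.14, and in FED-HFD against the same FED-CTRL mice all 7 were called, with a median of 2.25. The CR20-HFD median was -0.48 without mouse 6 and -0.50 without mice 6 and 7, -0.07 without mouse 31, -0.08 without FED-CTRL mouse 14 and -0.32 by voom without weights, with 0 of 7 at that p in each. Mmp12, the macrophage elastase, was at 62.5, 78.6 and 141 CPM in FED-CTRL and at 7.83, 68 and 104 CPM in CR20-HFD, with overlap (log2FC -0.53, 95% interval -2.07 to 1.00). Il1rn, the interleukin 1 receptor antagonist, was at 3.16, 5.5 and 6.97 CPM against 1.29, 4.88 and 16.1 CPM (log2FC 0.13, 95% interval -1.18 to 1.45). The sign of the Il1rn value turned to -0.50 without CR20-HFD mouse 6. Cd68, a lysosomal marker of macrophages, was at 68.7, 86.6 and 105 CPM against 46.5, 80.8 and 121 CPM (log2FC -0.14, 95% interval -0.86 to 0.57). The log2FC values of Il7r, Cd84 and Cd44 were -0.40, -0.34 and -0.11, and that of Tnfaip2 was 0.08. The highest upper bound among the 7 genes was 1.45, and 3 of the 7 intervals lay within 1 on both sides of 0.

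**Figure D5:**
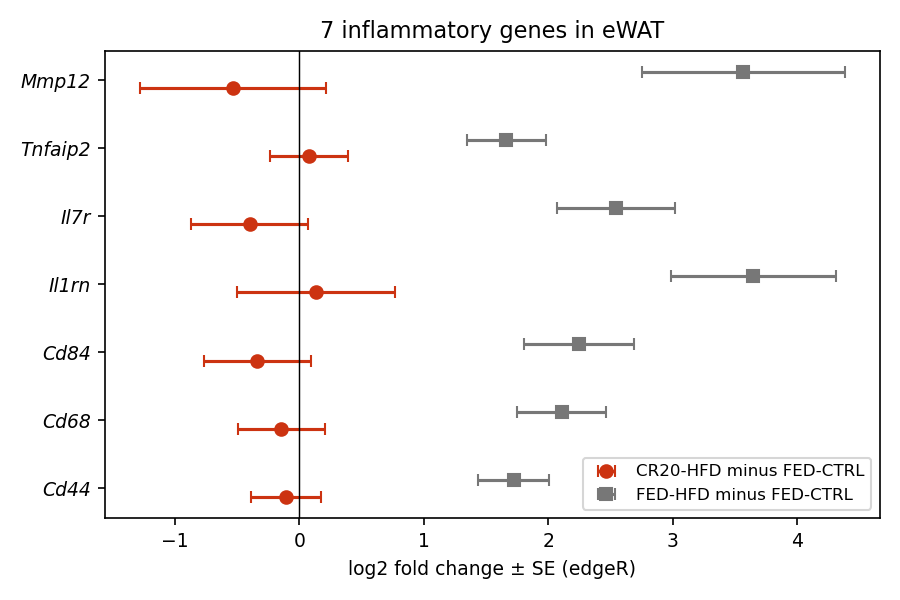
Log2FC with its SE by edgeR (horizontal axis) for 7 inflammatory genes in eWAT, for CR20-HFD (red circles) and FED-HFD (grey squares), both against the same 6 FED-CTRL mice. The CR20-HFD values lie between -0.53 and 0.13 and the FED-HFD values between 1.66 and 3.65, and the difference between the groups with the fatty diet was not tested.

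Marker lists of immune cells gave similar medians. Macrophage markers had 0 of 12 higher and 1 lower at an unadjusted p under 0.05 (Cd163, log2FC -0.38, SE 0.151). The counts of these lists stand beside 4.04% of all genes higher and 2.97% lower at that p. The macrophage median was -0.18 beside 0.72 in FED-HFD. Markers of lipid-associated macrophages had 0 of 10 in either direction, with a median of -0.17 beside 2.18 in FED-HFD, and their summed level spanned 1733 to 2289 CPM in FED-CTRL and 1219 to 2365 CPM in CR20-HFD. Lymphocyte markers had 0 of 11 in either direction. Cell cycle genes had 0 of 20, with a median of 0.07 beside 1.17 in FED-HFD. Of the interferon response genes 1 of 20, Ifi27l2a, was higher at that p (log2FC 0.75, SE 0.307). The median log2FC of that list was 0.08 beside 0.37 in FED-HFD. By limma voom with quality weights the CR20-HFD median was -0.02, with 9 of the 20 genes above 0 and 11 below. The summed level of the list, in which abundant genes weigh most, had a median of 1033 CPM in FED-CTRL (751 to 1398). In CR20-HFD the median was 1453 CPM (1119 to 2145) and in FED-HFD 1472 CPM (945 to 2140).

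Among imprinted genes, which are used from only the maternal or paternal copy, 2 of 23 were higher (Zim1 and Peg3) and 0 lower at an unadjusted edgeR p under 0.05, where 4.04% and 2.97% of all genes were, with a median log2FC of 0.14. The median was 0.07 without CR20-HFD mouse 6, 0.08 without mouse 31 and 0.24 without FED-CTRL mouse 42. It was 0.07 by limma voom with quality weights, 0.06 by voom without them, 0.06 with a term for the animal-number range, and 0.08 with only the groups compared. Zim1 and Peg3 are neighbours on chromosome 7, Zim1 at 6674268 to 6699500 and Peg3 at 6706882 to 6733468, both on the minus strand. Zim1, a zinc finger gene, was at 2.14, 4.12 and 7.03 CPM in FED-CTRL and at 6.14, 8.34 and 17.1 CPM in CR20-HFD (log2FC 1.21, SE 0.377). CR20-HFD mouse 46 and FED-CTRL mouse 24 were the only pair that overlapped for Zim1. Peg3, a paternally expressed zinc finger gene, was at 82.8, 159 and 224 CPM against 175, 247 and 397 CPM (log2FC 0.71, SE 0.32, edgeR adjusted p = 0.667). CR20-HFD mouse 6 was the highest of all 12 mice for both genes. With mouse 6 left out, alone or with mouse 7, 1 of 23 imprinted genes had an unadjusted p under 0.05.

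The counts of the remaining lists stand beside 4.04% of all genes higher and 2.97% lower at that p. Of the growth hormone and IGF genes 2 of 19 were higher at that p, Igfbp7 (log2FC 0.42) and Igf1 (log2FC 0.28, 95% interval 0.00 to 0.55), and 0 lower. Collagen and matrix genes had 2 of 27 higher and 0 lower, with a median of 0.12. Thbs1, which encodes the matrix protein thrombospondin 1, was at 75.7, 141 and 272 CPM against 100, 431 and 624 CPM (log2FC 1.24, SE 0.491), and Fbn1, fibrillin 1 of the microfibrils, had 0.64. Respiratory chain genes had 1 of 26 higher (Atp5mc1, log2FC 0.25) and all 26 intervals lay within 1 on both sides of 0. Thermogenic genes had 1 of 10 higher, Ucp1, the uncoupling protein of brown fat, which was at 0 to 0.244 CPM in FED-CTRL and at 0 to 2 CPM in CR20-HFD (exact permutation p = 0.234). The smooth muscle list had 2 of 7 higher (Cnn1 and Tagln), and the adipogenic transcription factor list 1 of 16 (Klf4, log2FC 0.39). The mitochondrially encoded genes had 0 of 10 in either direction. Among lists of other functions, 1 of 18 insulin action genes was lower at that p (Pfkfb3, log2FC -0.42), 1 of 14 glucocorticoid response genes higher (Mt1, log2FC 0.38), and 1 of 16 unfolded protein response genes higher (Atf4, log2FC 0.28) and 1 lower (Atf6, log2FC -0.21). Immediate early genes had 0 of 16 in either direction, with a median of 0.28. Markers of stromal progenitors (11 genes), mature adipocytes (10 genes), mesothelial cells (10 genes) and erythroid cells (4 genes) had 0 in either direction. Of the nerve markers 1 of 4 was lower (S100b, log2FC -0.84), and of the skeletal muscle markers 1 of 5 higher (Actn3, log2FC 0.64).

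The widest differences rested on a few mice. A log2FC of at least 2 with an unadjusted edgeR p under 0.05 was found for 18 genes higher and 0 lower in CR20-HFD, a set chosen after its values were seen. Mouse 7 was the highest CR20-HFD mouse for 13 of the 18 and mouse 6 for 2. Foxj1, which drives the formation of motile cilia, had 91.4% of the summed CR20-HFD level in mouse 7, at 21.6 CPM against a CR20-HFD median of 0.409 CPM. Ccl21a, a chemokine gene of lymphoid tissue, had 79.1% in mouse 7, at 74.6 CPM. Without mice 6 and 7, 631 genes in place of 1119 had an unadjusted p under 0.05, with 323 higher and 308 lower, and 0 were called.

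In liver, 18 of 13787 genes (0.131%) were called between CR20-HFD and FED-CTRL by edgeR, 2 higher (0.0145%) and 16 lower (0.116%). Lipogenic genes of the liver had 18 of 22 lower and 1 higher at an unadjusted p under 0.05, where 3.55% and 3.7% of all liver genes were. Their median log2FC was -1.14, where the eWAT median was -0.30. Scd1 fell in liver by 4.74 on the log2 scale (edgeR adjusted p = 7.88e-05), and its eWAT log2FC was -0.15. Me1 and Acacb also fell in liver, with log2FC values of -1.75 and -2.70 beside -0.50 and 0.31 in eWAT. The difference between the tissues was not tested. Of the 19 eWAT clock genes 18 were tested in liver, with 0 at an unadjusted p under 0.05 (7.25% of all liver genes) and a median of -0.11. In the pituitary 0 of 16657 genes (0%) were called by edgeR (1141 genes, 6.85%, at an unadjusted p under 0.05), and 1 clock gene was higher and 7 lower at that p, where 3.49% and 3.36% of all genes were, with a median of -0.14. Of the 20 eWAT genes chosen by p above, higher and lower, 15 were tested in liver and 18 in the pituitary, where 3 and 1 had an unadjusted p under 0.05.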

How the data were processed

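Libraries of eWAT, liver and pituitary from the 24 mice were made with a stranded total RNA kit per the labels, whereas the methods name both this kit and a stranded mRNA kit. The authors deposited whole-number read counts per Ensembl gene, made with Trimmomatic, STAR (GRCm39) and featureCounts, without normalization, and the strand setting of the counting was not stated. Samples were grouped by their labels. Names, positions and exons came from GENCODE M39, which matched 54749 of 55416 genes.

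Counts of 24 eWAT libraries were fitted with edgeR 4.0.16 in R 4.3.3, with a mean per group of 6 mice, filterByExpr, TMM factors and the quasi-likelihood test (two-sided, Benjamini-Hochberg adjustment). Liver and pituitary were fitted separately. An SE was the absolute log2FC divided by the square root of F, and 95% intervals used 23.5 degrees of freedom. CPM of single genes were scaled by TMM, those summed over a list and those of the widest differences by total count, and log2 CPM had a prior count of 2. Limma 3.58.1 (voom with quality weights, the study's test, and voom) and DESeq2 1.42.0 were alternatives, beside other filters, size factors, the groups compared only, the animal-number range, robust estimation and leaving out each mouse. The animal-number ranges were bounded at 20 and 40, so mice 4 to 7 shared a range with FED mice 10 to 16. Leaving out CR20-HFD mice 6 and 7, or FED-HFD mouse 23 and CR20-CTRL mouse 5, was chosen after seeing the data.

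Named genes were the 10 higher and 10 lower of smallest p among protein-coding genes without a Gm or Rik name. Others were the calls of limma voom with quality weights, members of the fixed lists and genes the study names. Members and lists were chosen with earlier results of these data known. The fits were tested on simulated data. IPA scores, qRT-PCR, serum values and weights were not analysed here. Some computed values are not given here.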

Additional observations from a re-analysis of the deposited data

Results flagged for a closer look

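A sample far from the others of its group was looked for in 182 group values of named genes (6 mice each) by the gap between the farthest mouse and the next as a share of the group's range, and 11 were found. Chance alone gives about 1 in 20 groups, which is close to this number.

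In CR20-HFD, mouse 46 was low for Chchd10 at 4.39 log2 CPM, where the nearest other mouse was at 4.99. Mouse 31 was low for Btg1 at 6.61 log2 CPM (nearest 7.04) and for Atf4 at 6.44 (nearest 7.08). Mouse 32 was low for Angptl4 at 8.87 log2 CPM (nearest 9.75) and high for mt-Co1 at 14.04 (nearest 13.7). Mouse 6 was low for Krt8 at 0.78 log2 CPM (nearest 4.53).

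In FED-CTRL, mouse 14 was low for Btg1 at 6.18 log2 CPM (nearest 6.6) and high for Acss2 at 8.4 (nearest 7.94). Mouse 41 was high for Kpna6 at 7.01 log2 CPM (nearest 6.89) and for Agt at 7.35 (nearest 6.77). Mouse 24 was high for Igfbp7 at 7.57 log2 CPM (nearest 7.13). Agt and Igfbp7 share 29.7% and 13.7% of their exon bases with genes on the other strand.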

How the results depend on the processing

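The number of genes called was 0 by edgeR and stayed 0 without each single mouse, with voom without weights, DESeq2, other size factors or filters, the animal-number range or robust estimation. It was 21 by limma voom with quality weights and 1 (Elovl6) with only the groups compared. At a log2FC of 0.58 it was 0 by edgeR and 59 by limma voom with quality weights. By DESeq2 it was 4, and with only the groups compared 4. Without FED-HFD mouse 23 and CR20-CTRL mouse 5 it was 1. Without each mouse it was 0 to 1 (1 without CR20-HFD mouse 32 or FED-CTRL mouse 16). At an adjusted p of at most 0.1 it was 1, but 581 with quality weights, 32 by DESeq2, 101 with only the groups compared, 3 with the animal-number range, 3 without mice 23 and 5, 0 with plain voom, no filter or mice 6 and 7 left out, and 0 to 1 without each mouse. The 1119 genes at an unadjusted p under 0.05 became 2675 with quality weights, 1990 with no filter (33313 genes tested), 2113 with only the groups compared, 631 without mice 6 and 7, 1946 without mice 23 and 5, and 829 to 1358 without each mouse. The log2FC of Il1rn turned to -0.19 with quality weights, -0.32 with plain voom and -0.63 without mice 6 and 7, and ranged from -0.50 (without CR20-HFD mouse 6) to 0.35 without each mouse. That of Tnfaip2 turned to -0.053 with the animal-number range and ranged from -0.022 (without CR20-HFD mouse 32; also below 0 without FED-CTRL mouse 42) to 0.17 without each mouse. That of Lep ranged from -0.22 to 0.014 (without CR20-HFD mouse 31), and that of Cd44 turned to 0.067 without mice 6 and 7. The cause of these changes was not tested. No paired analysis was possible because the groups share no animal number. The depth and 6 mice per group left a median half-width of 0.358 for the 95% interval of a log2FC.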
